A study of Mus musculus with 8 samples.

Results

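GSK3 inhibition was followed in parental mouse embryonic stem cells by sequencing of polyadenylated RNA, as the comparison of 2 libraries from cells given CHIR99021 with 2 libraries from cells given its vehicle. The cells are of the 129/Ola strain and carry both intact copies of the β-catenin gene (CTNNB1+/+). They grew in medium with 10% fetal bovine serum on gelatin, without feeder cells, and received CHIR99021 at 3 µM or DMSO at 0.3 µl/ml for 72 hours. The comparison uses 4 of the 8 libraries of the study. The other 4 come from a β-catenin knock-out line and entered only the filter, the scaling and the estimate of the spread. Of 48440 deposited genes, 17739 had enough counts to be tested, and all of them make up the comparison. The labels name 1 parental line and do not say whether the libraries of a group came from separate cultures, so a p-value here rests on how far these particular libraries differ, and that spread may be purely technical.

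The parental libraries held 23650572 and 24417695 estimated counts with DMSO and 26341568 and 24260736 with CHIR99021. Across genes the replicates correlated at 0.9866 and 0.9882 on log2 CPM, the counts scaled to a common library size. The first principal component of the 4 libraries, with 53% of their variance, held both DMSO libraries on one side (-33.96 and -33.77) and both CHIR99021 libraries on the other (34.57 and 33.17). The second, with 25%, set the DMSO libraries far apart (32.6 and -32.76), with the CHIR99021 libraries at -3.483 and 3.65. All 8 markers of embryonic stem cells were expressed, with a sum of 5815 and 5828 CPM with DMSO and 5417 and 5279 CPM with CHIR99021. Of the 8, 6 were lower (adjusted p under 0.05). Pou5f1 and Zfp42 fell little, with log2 fold changes of -0.13 and -0.16 (edgeR adjusted p = 0.0358 and 0.0115). Pou5f1 no longer passed when any 1 of the 4 parental libraries was left out. Zfp42 no longer passed without DMSO replicate 2 or CHIR99021 replicate 1. Of the 8 markers of fibroblasts and feeder cells, Col3a1, Lum, Dcn and Postn had 0 counts in all 4 libraries and 2, Thy1 and Pdgfrb, were higher, with a sum for the list of 9.4 and 11.1 CPM with DMSO and 20.4 and 21.9 CPM with CHIR99021.

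GSK3 is a pair of kinases, encoded by Gsk3a and Gsk3b, that mark β-catenin for destruction inside a complex built on Axin and APC. Wnt ligands stop that destruction at the cell surface and CHIR99021 stops it by blocking the kinases, so that β-catenin gathers, enters the nucleus and works with TCF/LEF factors on its target genes. In embryonic stem cells the same pathway is known both for upholding self-renewal and for turning on genes of the primitive streak, the site where the embryo forms mesoderm, and GSK3 has many other substrates, among them glycogen synthase and MYC proteins.

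After 72 hours a small set of genes had gone from near silence to clear expression while most of the response was broad and shallow. At an adjusted p under 0.05 (edgeR quasi-likelihood test, Benjamini-Hochberg adjustment over all genes tested; genes past it are called here), 3441 genes differed, 19.4% of those tested. Of these, 1614 were higher (9.1%) and 1827 lower (10.3%), and the median log2 fold change of all tested genes was 0.004. Counts of list members called, given below, stand against these shares. Past 2-fold were 558 genes (3.15%), 243 higher (1.37%) and 315 lower (1.78%). Large folds lay mostly at low expression: among genes under 1 CPM 148 of 3719 were called, nearly each by more than 2-fold. Smaller folds could seldom pass there, since the median standard error was 0.503 on the log2 scale, against 0.0434 over 100 CPM. At 1 to 10 CPM 131 genes rose and 171 fell by more than 2-fold. Among the 2281 genes over 100 CPM 28.7% were called, but 4 rose and 3 fell by more than 2-fold. The genes called higher took 11.2% and 11.3% of all CPM with DMSO and 14.0% and 13.8% with CHIR99021, and those called lower went from 16.7% and 16.6% to 13.3% and 13.6%. Leaving out 1 parental library lowered the count to between 2057 (without CHIR99021 replicate 1) and 2442 (without CHIR99021 replicate 2), with 2087 and 2249 without DMSO replicates 1 and 2, since the group then rests on a lone library.

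**Figure D1:**
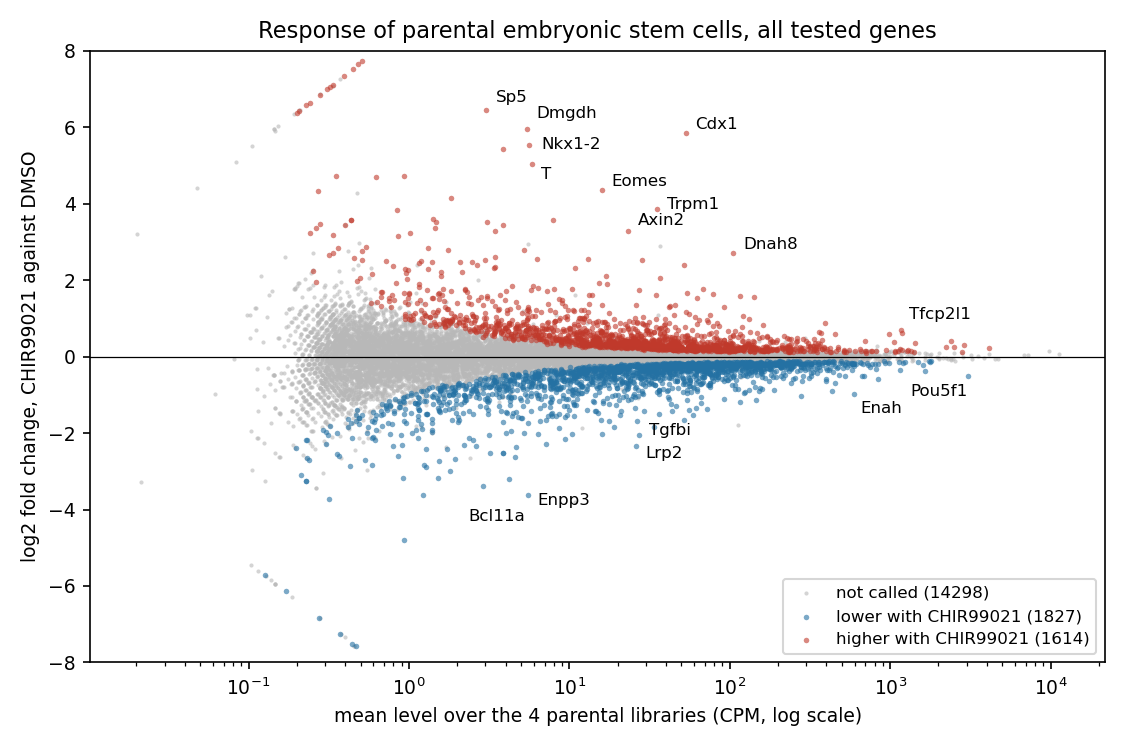
Mean level of each tested gene over the 4 parental libraries (CPM, log scale) against its log2 fold change, with genes called higher in red, lower in blue and the rest in grey; 4 genes beyond a log2 fold change of 8 and 5 genes with no count in the parental libraries are not drawn. The genes with the largest folds sit at the low end of expression, and above 100 CPM nearly all red and blue points lie within 2-fold. At the low end standard errors are wide, so small folds could seldom be called there.

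Direct targets and feedback regulators of the Wnt pathway changed in both directions: Sp5, Cdx1, T, Trpm1, Cdx2 and Axin2 were among those that rose, and Sfrp1, Sfrp2, Sfrp5 and Notum, secreted antagonists, were among those that fell. Of 37 listed genes 29 were tested, of which 11 rose and 8 fell (median log2 fold change 0.118). Cdx1 (ENSMUSG00000024619, chromosome 18, 61018862 to 61036199), a homeobox gene that patterns the posterior body axis, stood at 1.803 and 1.83 CPM with DMSO and 106 and 103 with CHIR99021. For Cdx1 the log2 fold change was 5.84 ± 0.13 (SE; edgeR adjusted p = 1.06e-09). Axin2 (ENSMUSG00000000142, chromosome 11, 108920349 to 108950783), a scaffold of the destruction complex that the pathway itself induces, was at 3.86 and 4.69 CPM with DMSO and 42.5 and 41.5 with CHIR99021. For Axin2 the log2 fold change was 3.29 ± 0.09 (SE; edgeR adjusted p = 4.27e-09). In both genes each CHIR99021 library lay far above each DMSO library and the replicates lay close together.

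Sp5 and T, which encode a zinc-finger and a T-box transcription factor, rose from a handful of reads. Sp5 (ENSMUSG00000075304, chromosome 2, 70474923 to 70477729) had 2 and 1 counts with DMSO and 162 and 138 with CHIR99021, a ratio of 94.8 (95% interval 32.1 to 462) that covers counting error only. For Sp5 the log2 fold change was 6.46 ± 0.37 (SE; edgeR adjusted p = 4.76e-07). This SE was derived from the test statistic and is narrower than the interval from counting error. T (ENSMUSG00000062327, chromosome 17, 8434423 to 8442496), also called Brachyury, had 11 and 5 counts with DMSO and 320 and 248 with CHIR99021, a ratio of 33.6 (95% interval 20.5 to 59.3) and a log2 fold change of 5.05 ± 0.31 (SE; edgeR adjusted p = 9.92e-07). No DMSO library of either gene came near a CHIR99021 library, but for T the fitted value hangs on the few DMSO reads, and it was 5.74 without DMSO replicate 1. Other members rose from higher or lower levels. Trpm1, a cation channel of melanocytes and retina whose gene hosts a microRNA, went from 4.77 and 4.36 to 64.1 and 67.8 CPM, Tcf7 from 26.7 and 27.5 to 44.4 and 45.3 CPM, and Cdx2 stayed under 2 CPM in every library with a ratio of summed counts of 14.8 (95% interval 6.07 to 46.8). The R-spondin receptor partners Rnf43 and Znrf3, which clear Frizzled from the surface and are common feedback targets, had log2 fold changes of 1.16 ± 0.41 and 0.16 ± 0.08 that did not pass (edgeR adjusted p = 0.0706 and 0.231).

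Promoter sequences from RefSeq (GRCm38.p6; 250 bases before to 50 after the annotated start) are shown for Sp5, T and Axin2, 3 members of the target list that rose. Capitals mark matches to any of 4 spellings of the TCF/LEF core on either strand. The spellings were CTTTGAA or CTTTGAT, and CTTTGTA or CTTTGTT. The Sp5 promoter (chr2:70474673-70474972, plus strand) held 2 matches, 222 and 104 bases before the start. The T promoter (chr17:8434173-8434472, plus strand) held 1, 235 bases before the start, and the Axin2 promoter (chr11:108920099-108920398, plus strand) held none.
Sp5: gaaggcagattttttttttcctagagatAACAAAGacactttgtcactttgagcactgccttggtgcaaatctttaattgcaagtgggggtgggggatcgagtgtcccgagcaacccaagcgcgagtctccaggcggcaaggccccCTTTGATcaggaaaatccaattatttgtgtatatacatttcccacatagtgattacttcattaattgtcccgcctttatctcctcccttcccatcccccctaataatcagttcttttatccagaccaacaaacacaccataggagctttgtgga
T: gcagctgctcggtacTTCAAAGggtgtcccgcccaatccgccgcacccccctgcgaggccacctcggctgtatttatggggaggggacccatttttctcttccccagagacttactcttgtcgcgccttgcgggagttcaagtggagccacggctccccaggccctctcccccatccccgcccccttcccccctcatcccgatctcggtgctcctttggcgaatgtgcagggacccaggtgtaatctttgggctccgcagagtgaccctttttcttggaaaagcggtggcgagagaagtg
Axin2: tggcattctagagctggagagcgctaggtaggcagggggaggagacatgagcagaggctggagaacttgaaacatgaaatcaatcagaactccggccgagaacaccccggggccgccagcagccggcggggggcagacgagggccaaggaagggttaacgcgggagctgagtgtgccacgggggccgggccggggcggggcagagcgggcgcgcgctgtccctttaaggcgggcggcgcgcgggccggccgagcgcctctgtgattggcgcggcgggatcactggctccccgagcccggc

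Of the 6 target genes for which promoters were read (Sp5, T, Trpm1, Cdx2, Axin2 and Nkd1), 3 had a match in at least 1 annotated promoter. For comparison, 16.9% of all 32851 promoters of the table had one, 11.7% of those of tested genes, 13.3% of those of genes called higher, 12% of those of genes called lower and 11.5% of those of genes not called. Among genes that rose more than 2-fold the share was 17.2%, and among those that fell more than 2-fold 13.5%. A match is only a run of letters in this window, and no match says nothing of binding elsewhere.

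The 8 lower members of the target list were Sfrp1, Sfrp2, Sfrp5, Notum, Shisa2, Ccnd1, Ccnd2 and Myc. Sfrp1, which binds and sequesters Wnt ligands, was at 195 and 201 CPM with DMSO and 106 and 106 with CHIR99021. For Sfrp1 the log2 fold change was -0.90 ± 0.04 (SE; edgeR adjusted p = 5.78e-08). Its relatives Sfrp2 and Sfrp5 and the Frizzled-retaining Shisa2 were also lower (log2 fold changes of -0.78, -1.51 and -1.27), as was Notum, a carboxylesterase that strips the lipid from Wnt (-0.52). Ccnd2, which encodes cyclin D2, fell from 15.5 and 13.9 to 6.63 and 6.27 CPM. Without parental DMSO replicate 2 or CHIR99021 replicate 2, 5 members of the list were called lower; the calls on Sfrp2 (parental DMSO replicate 2 (adjusted p = 0.0703)), Sfrp5 (parental CHIR99021 replicate 2 (adjusted p = 0.107) or parental DMSO replicate 2 (adjusted p = 0.111)) and Notum (parental CHIR99021 replicate 2 (adjusted p = 0.0566) or parental DMSO replicate 1 (adjusted p = 0.0642)) were lost without the libraries named with them. The call on Ccnd1 was lost without any 1 of the 4 parental libraries (adjusted p = 0.122 to 0.2) or without either knock-out CHIR99021 library (0.068 and 0.0549), under DESeq2 (0.0758), with the parental libraries alone (0.0526) and with the replicate block (0.0608).

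**Figure D2:**
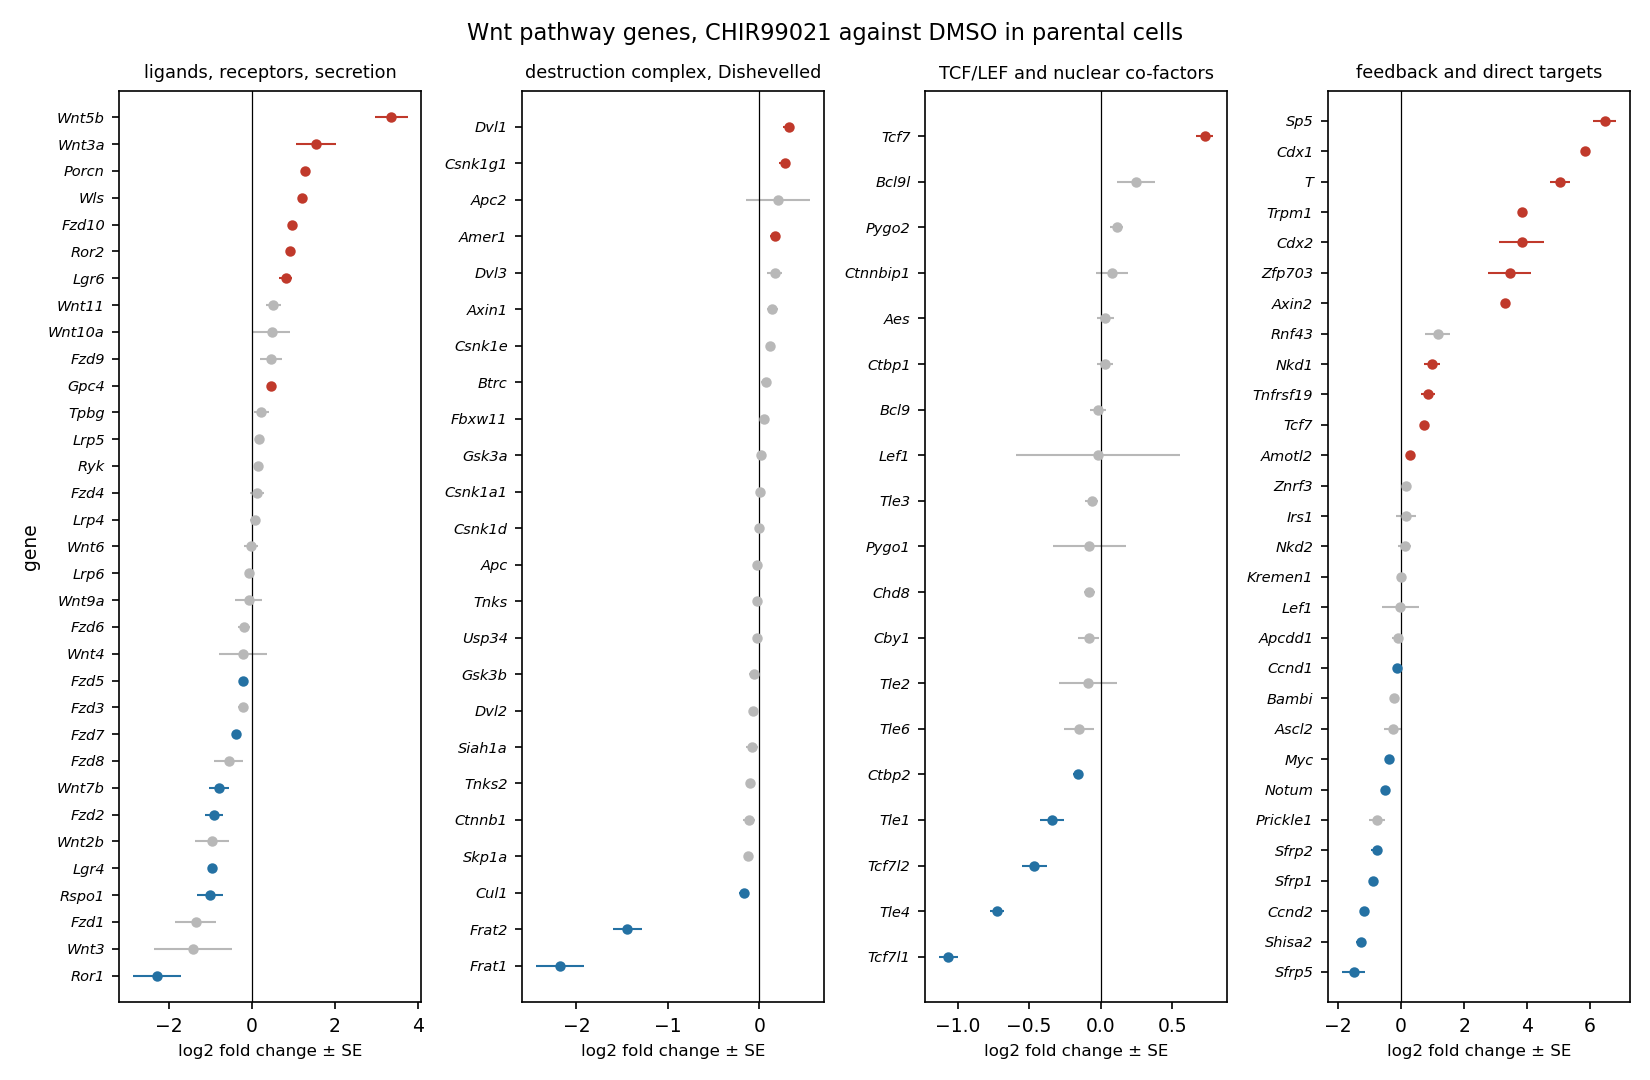
Log2 fold change with CHIR99021 of the tested Wnt pathway genes in 4 lists, red where called higher, blue where called lower and grey where not called. Bars are ± SE, derived from the test statistic of the fit to all libraries. Each panel has its own scale. Targets at the right reach 6.46 for Sp5, while most members of the destruction complex lie near 0 apart from Frat1 and Frat2.

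At the level of ligands and receptors genes changed in both directions: of 43 listed genes 33 were tested, 8 rose and 7 fell (median -0.029). These were 24.2% and 21.2% of those tested, against 9.1% and 10.3% of all genes. The lower count was 3 without DMSO replicate 2 or CHIR99021 replicate 1 and 4 without CHIR99021 replicate 2. The secretion genes Porcn and Wls rose. Porcn, the acyltransferase that attaches the lipid to Wnt proteins, was at 24.1 and 24.3 CPM with DMSO and 59.8 and 58.5 with CHIR99021, a log2 fold change of 1.29 ± 0.06 (SE; edgeR adjusted p = 8.91e-08), and Wls, which carries the lipidated ligand to the surface, at 5.58 and 6.31 CPM with DMSO and 13.5 and 14.1 with CHIR99021. For Wls the log2 fold change was 1.21 ± 0.10 (SE; edgeR adjusted p = 9.72e-06). The groups overlapped in neither gene, which was so for 10544 of the tested genes (59.4%).

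Among the ligands Wnt5b went from 0.172 and 0.332 to 2.91 and 2.38 CPM, a log2 fold change of 3.36 ± 0.39 (SE; edgeR adjusted p = 0.00011), and Wnt3a from 0.258 and 0.747 to 1.53 and 1.42 CPM. For Wnt3a the log2 fold change was 1.54 ± 0.48 (SE; edgeR adjusted p = 0.0461). Both remained under 3 CPM. The Wnt3a value was 0.98 and 2.50 without parental DMSO replicates 1 and 2, and its call was lost without knock-out DMSO replicate 1 (adjusted p = 0.0635), knock-out DMSO replicate 2 (adjusted p = 0.0636), parental CHIR99021 replicate 1 (adjusted p = 0.17), parental CHIR99021 replicate 2 (adjusted p = 0.118) or parental DMSO replicate 1 (adjusted p = 0.255). Of the receptors, Fzd10 and the non-canonical co-receptor Ror2 rose by 0.98 ± 0.07 and 0.93 ± 0.06, whereas Fzd7 and Fzd5 were lower (log2 fold changes -0.37 and -0.22). Ror1, a paralog of Ror2, had 11 and 13 counts with DMSO and 2 and 3 with CHIR99021 (log2 fold change -2.28 ± 0.57, SE; edgeR adjusted p = 0.0173), and its call was lost without parental CHIR99021 replicate 1 (adjusted p = 0.134), parental CHIR99021 replicate 2 (adjusted p = 0.0608), parental DMSO replicate 1 (adjusted p = 0.0676) or parental DMSO replicate 2 (adjusted p = 0.0991). Lgr4, the R-spondin receptor that keeps Frizzled at the surface, was at 70.96 and 71.3 CPM with DMSO and 35.2 and 37.9 with CHIR99021, a log2 fold change of -0.96 ± 0.05 (SE; edgeR adjusted p = 3.23e-07), with both CHIR99021 libraries well below both DMSO libraries.

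In the destruction complex itself, as among all genes, most transcripts did not pass the test: of 24 tested members 3 were higher, 3 lower and 18 not called (median -0.013). The share called was 25%, against 19.4% of all genes. The transcripts of the inhibited kinases did not pass, Gsk3a at 79.7 and 80.4 CPM with DMSO and 82.1 and 80.6 with CHIR99021 and Gsk3b at 53.8 and 56.1 CPM with DMSO and 51.2 and 54.8 with CHIR99021 (log2 fold changes 0.02 ± 0.05 and -0.05 ± 0.05; edgeR adjusted p = 0.807 and 0.534). Ctnnb1, which encodes β-catenin, was at 887 and 906 CPM with DMSO and 813 and 843 with CHIR99021 (log2 fold change -0.11 ± 0.06, SE; edgeR adjusted p = 0.245). The largest changes were those of Frat1 and Frat2, neighbouring genes whose products bind GSK3 and keep it from Axin. Frat1 was at 4.12 and 4.11 CPM with DMSO and 0.613 and 1.21 with CHIR99021, a log2 fold change of -2.18 ± 0.26 (SE; edgeR adjusted p = 0.000145), and Frat2 at 6.65 and 7.01 CPM with DMSO and 2.83 and 2.17 with CHIR99021. For Frat2 the log2 fold change was -1.44 ± 0.15 (SE; edgeR adjusted p = 5.78e-05). In both genes the groups lay far apart. Without DMSO replicate 1 or CHIR99021 replicate 2, 1 member of the list was called higher.

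Among TCF/LEF factors and their nuclear partners the members that fell included repressors. Tcf7l1, which mainly represses targets in embryonic stem cells until β-catenin displaces it, went from 53.5 and 57.7 to 27.5 and 25.7 CPM. For Tcf7l1 the log2 fold change was -1.06 ± 0.07 (SE; edgeR adjusted p = 1.12e-06). Tle4, a Groucho corepressor that TCF factors recruit, went from 82.7 and 82.2 to 48.8 and 50.9 CPM, a log2 fold change of -0.73 ± 0.05 (SE; edgeR adjusted p = 1.8e-06), and Tcf7l2 was lower (log2 fold change -0.46). In all, 5 of 19 tested members fell, 3 of them without DMSO replicate 2 or CHIR99021 replicate 1, and 1, Tcf7, rose by 0.73 ± 0.06. Lef1, with 15 and 11 counts with DMSO and 12 and 15 with CHIR99021, was not called (edgeR adjusted p = 0.989), with a wide standard error (-0.02 ± 0.57).

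Genes of the primitive streak and the posterior body axis rose in part. Of 38 listed genes 21 were tested, 8 rose and 5 fell (median 0.204). The 8 include Sp5 and Cdx1, which are also counted among the Wnt targets. Eomes (ENSMUSG00000032446, chromosome 9, 118478212 to 118486132), a T-box gene of streak and endoderm, was at 1.42 and 1.54 CPM with DMSO and 30.5 and 30.4 with CHIR99021. For Eomes the log2 fold change was 4.36 ± 0.11 (SE; edgeR adjusted p = 2.03e-09). Nkx1-2 (ENSMUSG00000048528, chromosome 7, 132594878 to 132599637), which encodes a homeodomain factor found in the epiblast where the trunk grows out, had 8 and 3 counts with DMSO and 279 and 268 with CHIR99021, a ratio of 47.1 (95% interval 26.1 to 94.95). For Nkx1-2 the fitted log2 fold change was 5.53 ± 0.36 (SE; edgeR adjusted p = 1.49e-06), and it was 6.40 without DMSO replicate 1. Each rose from under 2 CPM in both DMSO libraries to over 10 CPM in both CHIR99021 libraries.

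Other markers of the same stage did not pass the test or were too rare for it. Mixl1 had 20 and 27 counts with DMSO and 27 and 30 with CHIR99021 and Tbx6 11 and 13 counts with DMSO and 18 and 16 with CHIR99021 (edgeR adjusted p = 0.678 and 0.559), and Mesp1, Msgn1, Gsc, Foxa2, Evx1 and Fgf8 had too few counts to be tested. The members that fell were Dusp4, Sall3, Mest, Fgf17 and the Nodal inhibitor Lefty2, with log2 fold changes from -1.41 to -0.55. Of 39 Hox genes 6 passed the filter on low counts, and Hoxb9 and Hoxc13 rose, from 1.63 and 1.62 to 4.904 and 3.43 CPM and from 0.558 and 0.622 to 1.72 and 2.26 CPM (log2 fold changes of 1.36 ± 0.22 and 1.74 ± 0.29). In bulk RNA, more cells that express a gene and more transcript per cell cannot be told apart.

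**Figure D3:**
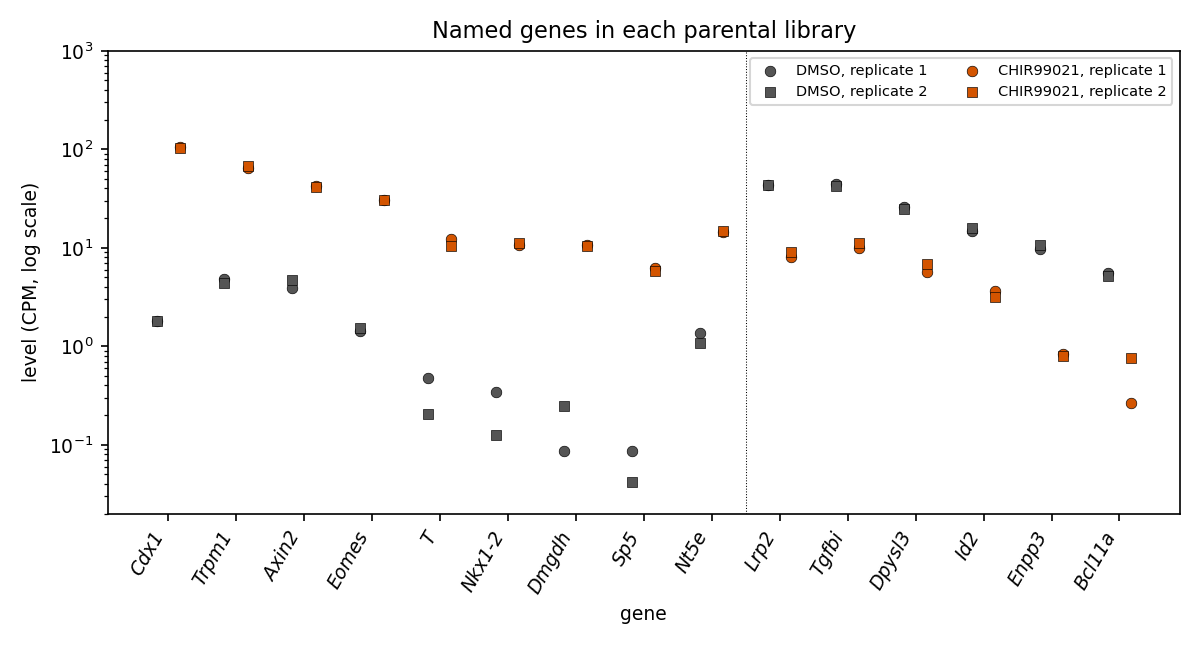
Level (CPM, log scale) of 9 genes that rose and 6 that fell in each of the 4 parental libraries, grey for DMSO and orange for CHIR99021, circles for replicate 1 and squares for replicate 2. In all 15 genes the groups lie apart, and the widest scatter between replicates is at values under 1 CPM.

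Pluripotency genes moved by list. Of 22 general pluripotency genes 18 fell and 2 rose (median -0.405), the highest share of lower calls among the lists. Trim28, a chromatin corepressor, had the largest loss in CPM on the list, from 1857 and 1900.0 to 1430.2 and 1441 CPM (log2 fold change -0.39 ± 0.04, SE; edgeR adjusted p = 5.41e-05). The methylcytosine dioxygenase gene Tet1 went from 787 and 786 to 542 and 559 CPM and Sox2 from 305 and 285 to 229 and 224 CPM. The steepest fall on the list was that of Utf1, from 169.8 and 172 to 97.8 and 88.3 CPM (log2 fold change -0.87 ± 0.08, SE; edgeR adjusted p = 2.83e-05). The 2 members that rose were Morc1 and Zfp57, by 0.33 and 0.14; the call on Zfp57 was lost without parental CHIR99021 replicate 1 (adjusted p = 0.134), parental DMSO replicate 1 (adjusted p = 0.084) or parental DMSO replicate 2 (adjusted p = 0.156).

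The naive list divided, with 5 of 26 higher and 11 lower (median -0.109). Tfcp2l1, a factor that sustains naive self-renewal, was at 888 and 898 CPM with DMSO and 1427 and 1454 with CHIR99021. For Tfcp2l1 the log2 fold change was 0.69 ± 0.03 (SE; edgeR adjusted p = 1.4e-07). Klf4 rose from 242 and 229 to 279 and 281 CPM and Nanog fell from 619.6 and 615 to 538 and 543 CPM, while Esrrb was at 748 and 756 CPM with DMSO and 746 and 750.2 with CHIR99021 and did not pass (edgeR adjusted p = 0.927). Prdm14, which shields naive cells from FGF signals, went from 33.1 and 35.9 to 18.2 and 19.6 CPM, and Fgf4 from 196 and 197 to 112 and 111 CPM (log2 fold changes of -0.87 ± 0.07 and -0.82 ± 0.04). Without DMSO replicate 1, 3 members were called higher.

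Genes of the formative and primed epiblast, the states that follow naive pluripotency, fell further: 14 of 22 were lower and 2 higher (median -0.667). Otx2, the homeobox factor that drives the exit from the naive state, was at 2.45 and 1.91 CPM with DMSO and 0.383 and 0.209 with CHIR99021. For Otx2 the log2 fold change was -2.84 ± 0.43 (SE; edgeR adjusted p = 0.000737). Dnmt3a, a de novo DNA methyltransferase, went from 91.5 and 87.8 to 43.5 and 43.1 CPM, its cofactor Dnmt3l from 75.8 and 75.2 to 47.7 and 46.5 CPM, and Fgf15 from 14.6 and 14.4 to 5.67 and 5.23 CPM. Dnmt3b, the other de novo methyltransferase, rose from 89.3 and 90.95 to 104 and 112 CPM (log2 fold change 0.26 ± 0.06, SE; edgeR adjusted p = 0.00742; the call was lost without parental CHIR99021 replicate 2 (adjusted p = 0.0714) or parental DMSO replicate 1 (adjusted p = 0.0559)). Without DMSO replicate 1 or CHIR99021 replicate 2, 0 members of the list were called higher. The CHIR99021 libraries lay below the DMSO libraries for Dnmt3a and above them for Dnmt3b.

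Neural genes had the lowest median of the lists. Of 30 listed 19 were tested, 13 fell and 0 rose (median -1.002), against 10.3% of all genes called lower. Like the other lists, this one was chosen with earlier results of these data known. The summed level of its tested members was 257 and 266 CPM with DMSO and 124 and 127.5 CPM with CHIR99021. Bcl11a, a zinc-finger factor of cortical neurons, was at 5.495 and 5.15 CPM with DMSO and 0.268 and 0.753 with CHIR99021, a log2 fold change of -3.39 ± 0.29 (SE; edgeR adjusted p = 9.72e-06) that was -4.29 without CHIR99021 replicate 2. Sox21 and Pax6, regulators of neural progenitors, went from 7.17 and 8.63 to 0.958 and 1.63 CPM and from 1.59 and 1.91 to 0.306 and 0.627 CPM. The cytoskeletal and growth-cone genes Crmp1, Dpysl3, Gap43 and Tubb3 fell, with log2 fold changes of -2.28, -2.03, -2.01 and -1.13 (edgeR adjusted p = 1.76e-07, 3.32e-07, 1.37e-06 and 4.48e-07). The proneural genes Neurog1 and Neurog2 had 0 counts in all 4 libraries.

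In the Hedgehog, Notch, Nodal, FGF, LIF and retinoic acid lists more genes fell than rose. The Hedgehog list had 5 of 17 lower and 0 higher, and the 5 include genes that report the pathway. The receptor Ptch1, which Hedgehog signalling induces, went from 126 and 126 to 57.3 and 59.8 CPM, and the effector Gli1 from 94.5 and 91.99 to 57.3 and 54.7 CPM (log2 fold changes of -1.11 ± 0.04 and -0.74 ± 0.04). Hhip, which binds the ligand, and the endocytic receptor Lrp2 had log2 fold changes of -2.53 ± 0.19 and -2.34 ± 0.07. Gli2, Gli3, Smo and Sufu, whose transcripts are not pathway reporters, were not called (edgeR adjusted p = 0.607, 0.514, 0.0665 and 0.907).

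In the Notch list 4 of 20 fell and 0 rose, Notch1, Notch4, Dtx1 and Rbpj, the DNA-binding partner of Notch, which went from 491 and 478 to 309 and 318 CPM (log2 fold change -0.63 ± 0.04, SE; edgeR adjusted p = 1.78e-06). The target Hes1 was not called (edgeR adjusted p = 0.793). Of 27 Nodal/Activin and TGF-β genes 11 fell and 3 rose (median -0.162). Lefty1, a Nodal inhibitor that Nodal induces, was at 55.4 and 50.1 CPM with DMSO and 15.6 and 13.6 with CHIR99021. For Lefty1 the log2 fold change was -1.85 ± 0.08 (SE; edgeR adjusted p = 1.1e-07). Outside that list Tgfbi, a matrix protein named for its response to TGF-β, went from 44.8 and 42.6 to 9.85 and 11.2 CPM (log2 fold change -2.06 ± 0.07, SE; edgeR adjusted p = 1.55e-08). Fst, which traps Activin, rose from 1.24 and 1.58 to 3.29 and 4.68 CPM.

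The BMP and Id list showed members of 1 family going opposite ways. Id2 was at 14.6 and 15.9 CPM with DMSO and 3.68 and 3.14 with CHIR99021, a log2 fold change of -2.16 ± 0.11 (SE; edgeR adjusted p = 1.95e-07), whereas Id3 went from 10.6 and 11.5 to 25.2 and 23.6 CPM, a log2 fold change of 1.14 ± 0.11 (SE; edgeR adjusted p = 3.31e-05), and Id1 from 71.5 and 66.6 to 88.04 and 83.4 CPM. Id proteins block basic helix-loop-helix factors and are common BMP targets. The ligand Bmp7 and the homeobox gene Msx2 also rose, by 1.39 ± 0.13 and 2.30 ± 0.44. Shares called in the list were 19.05% higher and 14.29% lower, against 9.1% and 10.3% of all genes. Of 21 tested members 4 rose and 3 fell, and 1 fell without DMSO replicate 2 or CHIR99021 replicate 2.

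The FGF/ERK list had 13 of 29 lower and 4 higher (median -0.206), and 2 higher without DMSO replicate 1 or CHIR99021 replicate 1. Its feedback genes did not move as one: the phosphatase Dusp4 and the factor Etv1 fell (log2 fold changes -1.41 and -0.97), and Etv4 rose from 165 and 174 to 222 and 215 CPM. In the LIF/STAT3 list 9 of 21 fell and 5 rose (median -0.09). The 5 include Sp5, which is also counted among the Wnt targets. The receptor subunits Lifr and Il6st fell, Lifr from 82.6 and 80.1 to 41.9 and 44.6 CPM (log2 fold change -0.91 ± 0.05, SE; edgeR adjusted p = 3.6e-07) and Il6st from 87.8 and 90.8 to 62.2 and 65.98 CPM, as did Socs2, while the kinase gene Pim1 rose from 92.3 and 91.04 to 139.7 and 138 CPM. Among 15 retinoic acid genes 5 fell, including the receptors Rara and Rarg (log2 fold changes -0.52 and -0.50).

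Regulators of G1 had a share called of 45.2%, against 10.3% for the DNA replication machinery and 19.4% of all genes. Of 31 genes of the MYC family and G1 control 4 rose and 10 fell (median -0.106), and 5 or 6 fell without DMSO replicate 2, CHIR99021 replicate 1 or CHIR99021 replicate 2. Mycn, a MYC paralog prominent in embryonic stem cells, was at 84.01 and 77.97 CPM with DMSO and 30.99 and 30.9 with CHIR99021. For Mycn the log2 fold change was -1.39 ± 0.06 (SE; edgeR adjusted p = 3.96e-08). The paralog Mycl rose from 7.599 and 7.14 to 12.9 and 11.96 CPM, and Myc fell from 63.2 and 64.8 to 47.8 and 50.97 CPM. The cyclin-dependent kinase inhibitors Cdkn1a (p21) and Cdkn1c (p57) crossed: Cdkn1a went from 25.1 and 26.3 to 85.2 and 79.3 CPM (log2 fold change 1.68 ± 0.06, SE; edgeR adjusted p = 1.68e-08) and Cdkn1c from 41.3 and 39.3 to 11.8 and 13.1 CPM (log2 fold change -1.69 ± 0.07, SE; edgeR adjusted p = 4.24e-08). Of 39 DNA replication genes 2 rose and 2 fell, and of 35 mitotic genes 8 fell and 2 rose. Without 1 parental library 0 or 1 replication gene was called in each direction, and 0 (without DMSO replicate 1) or 1 mitotic gene was higher.

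Among 26 targets of p53 11 rose and 1, Trp53 itself, fell (median 0.199; 7 rose without DMSO replicate 1 and 6 without CHIR99021 replicate 2). Besides Cdkn1a, Ddit4l rose by 0.92 ± 0.10 and Ccng1 by 0.46 ± 0.06, while Trp53 went from 425 and 449.8 to 354 and 358 CPM. The pro-apoptotic targets Bax, Bbc3 and Pmaip1 were not called (log2 fold changes of -0.05, -0.03 and 0.09; edgeR adjusted p = 0.655, 0.856 and 0.742).

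Metabolic genes included some of the strongest single responses. Dmgdh (ENSMUSG00000042102, chromosome 13, 93674433 to 93752833), a mitochondrial enzyme that oxidises dimethylglycine in the breakdown of choline, had 2 and 6 counts with DMSO and 281 and 252 with CHIR99021, a ratio of 63.1 (95% interval 31.8 to 147). For Dmgdh the fitted log2 fold change was 5.94 ± 0.43 (SE; edgeR adjusted p = 3.32e-06), and it was 6.88 without DMSO replicate 2. Bhmt, a methyltransferase that acts one step upstream, and its relative Bhmt2 are neighbours of Dmgdh, and both feed the methionine cycle. Bhmt2 was at 0.472 and 0.8299 CPM with DMSO and 7.16 and 7.02 with CHIR99021, a log2 fold change of 3.43 ± 0.25 (SE; edgeR adjusted p = 3.36e-06), and Bhmt at 0.258 and 0.08299 CPM with DMSO and 1.76 and 1.296 with CHIR99021, a log2 fold change of 3.14 ± 0.50 (SE; edgeR adjusted p = 0.00108) (4.13 and 2.55 without DMSO replicates 1 and 2). None of the 3 genes reached 1 CPM in a DMSO library, and both CHIR99021 libraries exceeded it for each.

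Dmgdh and Bhmt2 start back to back on opposite strands, with RefSeq start sites 134 bases apart, so that their promoter windows overlap. The window is printed from the Dmgdh side (chr13:93674186-93674485, plus strand) and was chosen after the values were seen. It held none of the 4 spellings of the TCF/LEF core, so it has no capitals.
Dmgdh: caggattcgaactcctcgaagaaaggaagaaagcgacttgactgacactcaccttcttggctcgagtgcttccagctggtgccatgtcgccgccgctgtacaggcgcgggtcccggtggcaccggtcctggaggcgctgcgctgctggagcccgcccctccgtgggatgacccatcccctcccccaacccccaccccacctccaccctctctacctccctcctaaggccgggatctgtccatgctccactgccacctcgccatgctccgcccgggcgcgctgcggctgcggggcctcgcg

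Dmgdh, Bhmt2 and Bhmt belong to the list of threonine, glycine, serine and choline genes, of which 26 were tested, 7 were higher and 3 lower (median 0.02). The shares were 26.9% higher, against 9.1% of all genes, and 11.5% lower, near the 10.3% of all genes. Tdh, the threonine dehydrogenase on which mouse embryonic stem cells rely, was at 938 and 930.2 CPM with DMSO and 1419 and 1423 with CHIR99021. For Tdh the log2 fold change was 0.61 ± 0.04 (SE; edgeR adjusted p = 7.99e-07). Gldc, of the glycine cleavage system that uses its product, went from 29.8 and 31.9 to 42.98 and 46.4 CPM, and Pipox, which degrades sarcosine and pipecolic acid, fell from 42.6 and 42.5 to 25.2 and 26.1 CPM. Both CHIR99021 libraries of Tdh lay above both DMSO libraries. Without CHIR99021 replicate 2, 5 members of the list were called lower.

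Enzymes that act on nucleotides outside the cell changed in opposite directions. Nt5e, the ecto-5'-nucleotidase CD73 that turns AMP into adenosine, was at 1.37 and 1.08 CPM with DMSO and 14.5 and 14.8 with CHIR99021. For Nt5e the log2 fold change was 3.57 ± 0.16 (SE; edgeR adjusted p = 1.1e-07). Enpp3, an ecto-pyrophosphatase that splits ATP and nucleotide sugars, was at 9.62 and 10.7 CPM with DMSO and 0.843 and 0.794 with CHIR99021. For Enpp3 the log2 fold change was -3.62 ± 0.14 (SE; edgeR adjusted p = 2.73e-08). The alkaline phosphatase Alpl, a classic stain of pluripotent cells, rose from 116 and 118 to 208 and 203 CPM, the purine nucleoside phosphorylase Pnp fell from 187 and 186 to 128 and 129.8 CPM, and the nucleoside carrier Slc28a1 from 18.2 and 20.9 to 8.93 and 8.49 CPM. Of 20 tested members 2 rose (10%) and 6 fell (30%), against 9.1% and 10.3% of all genes (median 0.037).

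Sterol genes rose together by small amounts: of 29 genes 16 were called higher and 0 lower (median 0.2), and 9 or 8 without DMSO replicate 2 or CHIR99021 replicate 1. Ebp, an isomerase late in cholesterol synthesis, went from 23.4 and 20.7 to 42.2 and 39.8 CPM (log2 fold change 0.89 ± 0.07, SE; edgeR adjusted p = 7.91e-06) and Fdft1, squalene synthase, from 86.5 and 85.8 to 117 and 111 CPM. In fatty acid metabolism 6 of 27 rose (22.2%) and 2 fell (7.41%), against 9.1% and 10.3% of all genes. Scd1 and Elovl6 were higher by 0.40 ± 0.05 and 0.29 ± 0.04. The transporter Slc27a2 was lower, from 7.73 and 7.51 to 1.03 and 0.585 CPM (log2 fold change -3.21 ± 0.21, SE, edgeR adjusted p = 1.48e-06). In that list 1 gene was lower without DMSO replicate 2 or any 1 CHIR99021 library of either line. Glycogen synthase is the substrate that gave GSK3 its name. Of the 23 tested glycogen genes 5 rose (21.7%) and 3 fell (13.0%), the latter near the 10.3% of all genes. Gys1, the synthase, fell from 59.4 and 61.9 to 49.8 and 47.6 CPM. The lysosomal glucosidase Gaa rose from 61.3 and 63.9 to 81.8 and 81 CPM. Leaving out any 1 parental library left 2 or 3 glycogen genes called higher, and 1 was lower without DMSO replicate 2 or CHIR99021 replicate 1.

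Lysosomal genes rose more often than they fell, and 3 of their transcription factors were lower. Of 37 tested genes of lysosome, autophagy and the MiT/TFE factors 18 rose and 7 fell (median 0.174). Cd63, a tetraspanin of late endosomes, was at 32.5 and 33.5 CPM with DMSO and 74.6 and 72.6 with CHIR99021. For Cd63 the log2 fold change was 1.16 ± 0.06 (SE; edgeR adjusted p = 3.32e-07). The cathepsins Ctsl and Ctsb and the sterol carrier Npc2 rose by 0.65 ± 0.04, 0.55 ± 0.05 and 0.66 ± 0.05. The transcription factors of the programme, Tfeb, Tfe3 and Mitf, were each lower, from 47.2 and 48.4 to 39.5 and 38.3 CPM, from 75 and 77.5 to 64.8 and 62.5 CPM and from 20.6 and 20 to 13.3 and 13.97 CPM (edgeR adjusted p = 0.0112, 0.00228 and 0.000126); the lower count was 4 without DMSO replicate 2 or CHIR99021 replicate 2, and Tfeb was lost without parental CHIR99021 replicate 2 (adjusted p = 0.0691) or parental DMSO replicate 2 (adjusted p = 0.0736). The span of Ctsb holds part of Fdft1 on the other strand, and reads of this pair may be shared.

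The annexins, calcium-dependent membrane-binding proteins, had 5 of 13 tested list members higher (38.5%) and 3 lower (23.1%), against 9.1% and 10.3% of all genes. Anxa5 went from 6.61 and 6.35 to 14.7 and 14.97 CPM, Anxa7 from 48.4 and 48.9 to 95.9 and 94.1 CPM, Anxa3 from 2.705 and 3.61 to 6.78 and 7.15 CPM and Anxa4 from 21.7 and 21.1 to 35.4 and 40.1 CPM, with log2 fold changes from 0.82 to 1.19. Anxa6 and the annexin partner S100a10 fell (log2 fold changes -0.36 and -0.48). In the interferon and MHC class I list (7 of 25 higher, 3 without CHIR99021 replicate 1) the 3 lower members were the neighbouring Ifitm1, Ifitm2 and Ifitm3, membrane proteins of stem and germ cells; Ifitm1 went from 98.95 and 108 to 41.7 and 38.1 CPM. For Ifitm1 the log2 fold change was -1.37 ± 0.07 (SE; edgeR adjusted p = 2.74e-07).

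The extracellular matrix changed in both directions, with 5 of 23 genes higher and 9 lower. Fn1, fibronectin, was at 788 and 794 CPM with DMSO and 1212 and 1165 with CHIR99021, a log2 fold change of 0.59 ± 0.04 (SE; edgeR adjusted p = 1.31e-06), and the laminin chain Lama5 went from 267 and 281 to 524 and 486 CPM. The paired collagen IV chains Col4a1 and Col4a2 fell, from 30.5 and 33.4 to 15.2 and 13.8 CPM and from 13.7 and 13.8 to 7.51 and 6.98 CPM, and Lama1 from 121 and 124 to 88.04 and 84.2 CPM. Of the cadherins Cdh3 (P-cadherin) fell from 21.7 and 21.2 to 7.78 and 8.24 CPM, a log2 fold change of -1.42 ± 0.08 (SE; edgeR adjusted p = 5.19e-07), and Cdh1 (E-cadherin) was not called (edgeR adjusted p = 0.102). Hypoxia-linked genes included Epas1 (HIF-2α), from 65.7 and 61 to 23.6 and 23.6 CPM, and Ndrg1, from 6.27 and 5.602 to 1.61 and 2.01 CPM, both lower (log2 fold changes of -1.43 ± 0.05 and -1.72 ± 0.18). The glucose transporter Slc2a3 rose from 900.2 and 929 to 1189 and 1189 CPM. Slc2a1, another glucose transporter, fell from 305 and 317 to 264 and 253 CPM (log2 fold change -0.27). Of 43 glycolysis and hypoxia genes 5 rose (11.6%) and 12 fell (27.9%), against 9.1% and 10.3% of all genes.

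**Figure D4:**
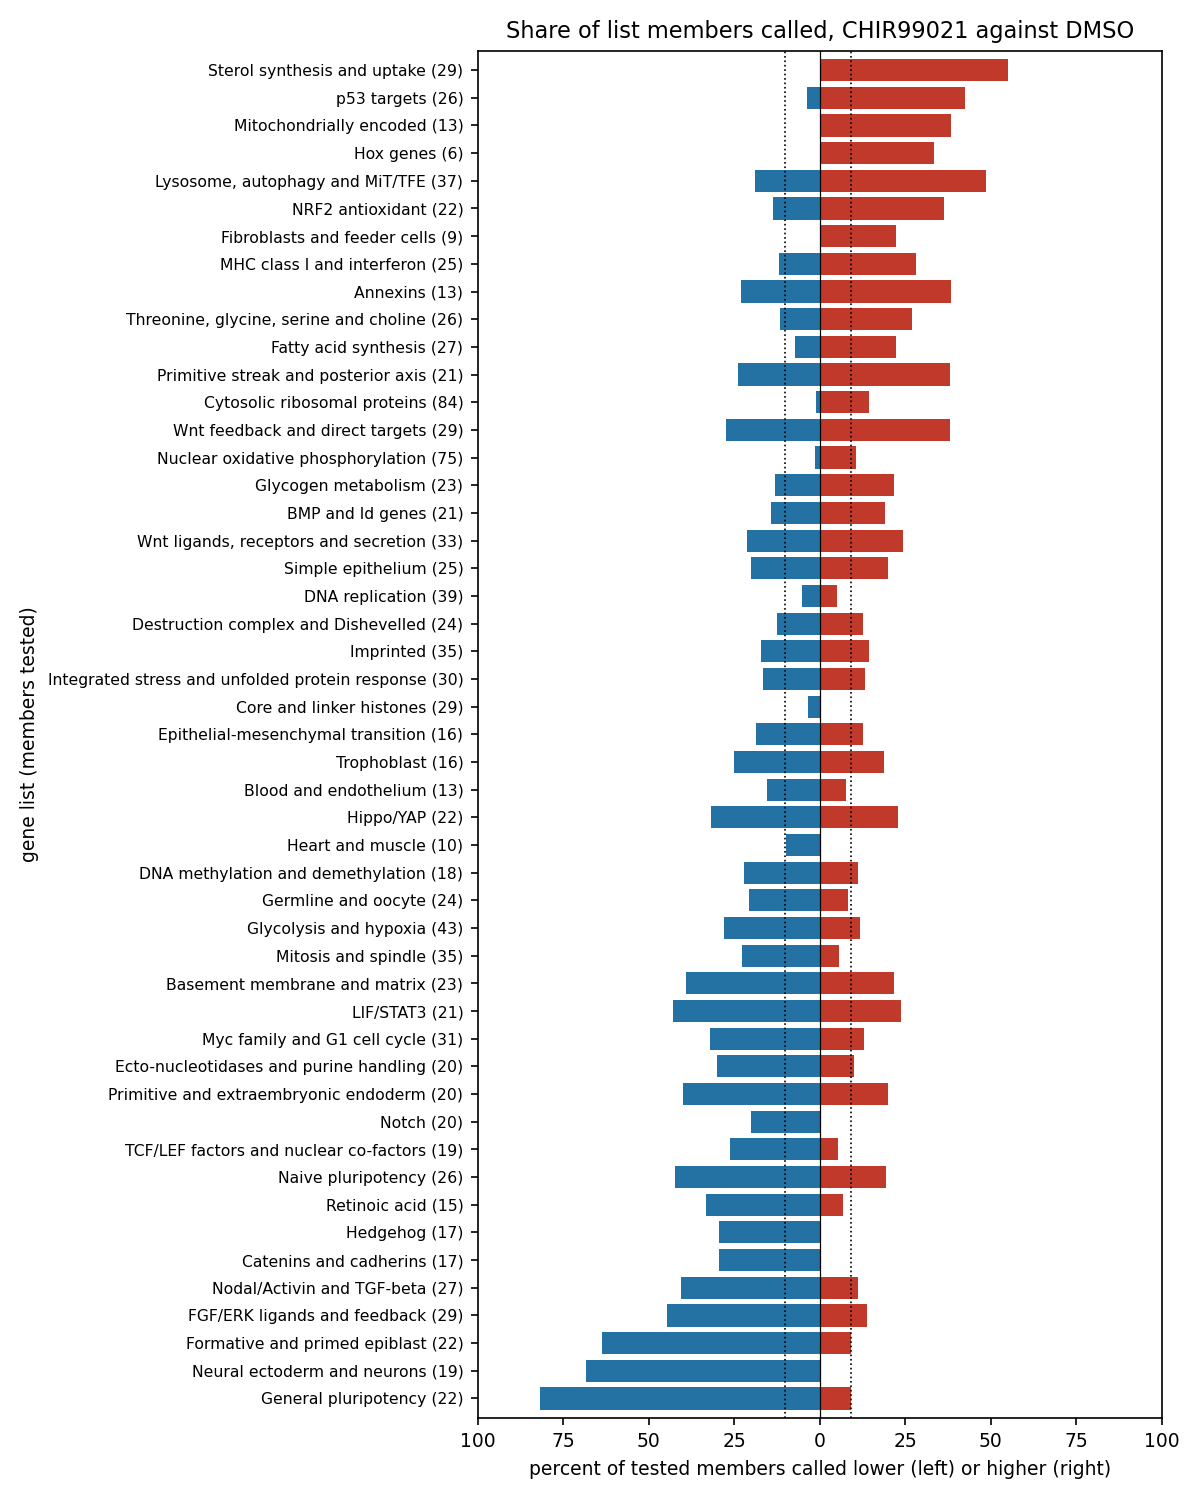
Share of the tested members of each gene list called higher (red, right) or lower (blue, left) with CHIR99021, for lists with at least 6 tested members; dotted lines mark the shares over all tested genes, 9.1% higher and 10.3% lower. General pluripotency and neural genes reach the left-most bars (18 of 22 and 13 of 19 lower), and sterol genes the right-most (16 of 29 higher). The lists were chosen with earlier results of these data known, so distance from the dotted lines is not an independent test.

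Weighed by the change in CPM, which is not corrected for transcript length, the response had other leading genes. Among genes with a symbol other than a predicted-gene name, the 10 largest gains in mean CPM were those of 4 genes of the mitochondrial genome (mt-Co2, mt-Nd1, mt-Nd4 and mt-Nd2) and of Tfcp2l1, Tdh, Fn1, Pabpc1, Slc2a3 and Rpl7. mt-Nd1, a subunit of respiratory complex I, was at 2617 and 2574 CPM with DMSO and 3230.4 and 3173 with CHIR99021. For mt-Nd1 the log2 fold change was 0.30 ± 0.04 (SE; edgeR adjusted p = 0.000514). The predicted gene Gm10116, left out by that rule, had a larger gain than any of them, from 2050.0 and 2053 to 2825 and 2658 CPM (log2 fold change 0.42 ± 0.04, SE; edgeR adjusted p = 5.86e-05). The call on mt-Nd4 was lost without any 1 parental library (adjusted p = 0.0597 to 0.106). Rpl7 was not called without parental CHIR99021 replicate 2 (adjusted p = 0.0793), parental DMSO replicate 1 (adjusted p = 0.13) or parental DMSO replicate 2 (adjusted p = 0.157), nor mt-Co2 without parental CHIR99021 replicate 1 (adjusted p = 0.0558) or parental DMSO replicate 1 (adjusted p = 0.0951). Of 13 mitochondrially encoded genes 5 were called higher and 0 lower, and 2 higher without CHIR99021 replicate 1. Nuclear genes of oxidative phosphorylation had 8 of 75 higher and 1 lower, a share called of 12%, below that of all genes, and 1 was higher without DMSO replicate 1 or CHIR99021 replicate 1.

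By the same rule the 10 largest losses included those of Rn18s-rs5, Trim28, Enah, Lars2, Trip12, Glul, Hnrnpu, Tet1 and Kdm5b. Rn18s-rs5 carries sequence of 18S ribosomal RNA, which selection for poly(A) should mostly remove; it was at 3567 and 3587 CPM with DMSO and 2358 and 2713 with CHIR99021, and its part in the other values was not tested. Enah, an actin regulator, was at 788 and 786 CPM with DMSO and 394 and 410.0 with CHIR99021, a log2 fold change of -0.97 ± 0.04 (SE; edgeR adjusted p = 2.73e-08), and Glul, glutamine synthetase, at 559.9 and 571 CPM with DMSO and 305 and 303 with CHIR99021. For Glul the log2 fold change was -0.90 ± 0.04 (SE; edgeR adjusted p = 1.4e-07). The replicates of both genes lay close together and the groups did not overlap. Kdm5b, a histone H3K4 demethylase, went from 564 and 551 to 340.3 and 356 CPM. The 7SL RNA genes Rn7s1 and Rn7s2, among the lowest fold changes, had equal values with DMSO replicate 1 far above the rest, 11.4 and 1.66 CPM with DMSO and 1.34 and 0.9199 with CHIR99021; without that library the log2 fold change was -0.55 (adjusted p = 0.441), and the call was also lost without either CHIR99021 library.

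Some genes were switched between absence and presence. With at most 3 counts summed over both DMSO libraries and at least 30 over both CHIR99021 libraries, those called higher included, besides Sp5, Vrtn, Zfp703, Tmem132c, Serpinb8 and the imprinted Plagl1. The call on Serpinb8 was lost without parental CHIR99021 replicate 2 (adjusted p = 0.0558) or parental DMSO replicate 2 (adjusted p = 0.0878), and its log2 fold change of 4.72 was 7.16 and 3.85 without DMSO replicates 1 and 2. Zfp703 was not called without parental CHIR99021 replicate 1 (adjusted p = 0.0584) or parental DMSO replicate 2 (adjusted p = 0.0555). Vrtn, which sets the number of thoracic vertebrae, had 0 and 3 counts with DMSO and 49 and 41 with CHIR99021, a ratio of 28.4 (95% interval 9.42 to 140.4); its log2 fold change of 4.73 ± 0.91 was 3.80 and 8.54 without DMSO replicates 1 and 2. Plagl1, a zinc-finger gene expressed from the paternal copy, had 1 and 2 counts with DMSO and 19 and 21 with CHIR99021, a ratio of 12.6 (95% interval 4.02 to 63.8); it missed the threshold with parental DMSO replicate 1 (adjusted p = 0.0705) left out. In the other direction Skor1, a SKI-family corepressor of neurons, had 50 and 35 counts with DMSO and 0 and 3 with CHIR99021, a DMSO over CHIR99021 ratio of 29.9 (95% interval 9.89 to 148); its log2 fold change of -4.79 ± 0.66 was -3.79 and -8.54 without CHIR99021 replicates 1 and 2. Zfp781 had 53 and 103 counts with DMSO and 0 and 0 with CHIR99021, at least 54.9-fold lower against a floor of 3 counts over the group, but it belongs to a large family of similar zinc-finger genes among which estimated counts can be divided, and its call was lost without parental CHIR99021 replicate 1 (adjusted p = 0.109), parental CHIR99021 replicate 2 (adjusted p = 0.09) or parental DMSO replicate 2 (adjusted p = 0.0799).

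Genes outside the lists also had large changes and were picked after their values were seen. The cysteine protease Ctsc went from 8.07 and 8.76 to 45.7 and 50.9 CPM. For Ctsc the log2 fold change was 2.52 ± 0.08 (SE; edgeR adjusted p = 1.23e-08). Others that rose were the ephrin receptor Epha1 from 1.29 and 0.954 to 5.55 and 5.896 CPM, the semaphorin co-receptor Nrp2 from 19.15 and 15.1 to 49.99 and 53.7 CPM, netrin-1 (Ntn1) from 31.6 and 33.03 to 92.8 and 93.3 CPM and the immunoglobulin-family receptor Prtg from 3.31 and 3.98 to 16.97 and 19.4 CPM. Dnah8, a dynein heavy chain of cilia and sperm tails, was at 30.2 and 25.5 CPM with DMSO and 186 and 179.6 with CHIR99021, a log2 fold change of 2.71 ± 0.07 (SE; edgeR adjusted p = 1.76e-09); its span overlaps Glo1 on the other strand, which rose by 0.28 ± 0.04, and 1700097N02Rik, which rose by 2.56; reads in the stretch shared at their starts may be counted for any of them. The lincRNA Gm20362 on chromosome 6 went from 17.2 and 15.9 to 88.6 and 85.01 CPM and the pluripotency-associated transcripts Platr13 and Platr15 from 6.998 and 6.72 to 21.5 and 20.1 CPM and from 38.98 and 37.97 to 122 and 115 CPM. Among those that fell were the GTPase gene Eras, which promotes growth of embryonic stem cells, from 42.03 and 42.9 to 17.2 and 14.6 CPM, the adhesion gene Mcam, from 54.7 and 52.5 to 19.08 and 18.7 CPM, and the forkhead gene Foxp1, from 64.1 and 67.5 to 27.6 and 25.9 CPM. The groups overlapped in none of these genes, as in 59.4% of all tested genes.

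Several of the strongest genes had risen neighbours. Around the 6 genes with the highest fold changes among called genes whose higher group reached 5 CPM, whose groups did not overlap and which carry no predicted-gene or clone name, all tested genes within 300 kb were read (GRCm38, GENCODE M21). At Dmgdh 3 of 5 others rose and 0 fell, at Cdx1 6 of 12 and 0, at Nkx1-2 3 of 8 and 1, and at Sp5 2 of 4 and 1. Some of these rises were small: Hmgxb3, Rps2-ps10 and Rps14 at Cdx1 had log2 fold changes of 0.23, 0.18 and 0.12, and Gorasp2 at Sp5 0.14. At T 0 of 9 others were called, and at Eomes 0 rose and 1, Itga9, fell. These windows were read after the neighbours' values had been seen, and the background is 9.1% higher and 10.3% lower.

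Beside Cdx1 on chromosome 18 lie Pdgfrb, the receptor for PDGF-B, Slc6a7, a proline transporter of synapses, and Camk2a, a calcium-dependent kinase of neurons. Pdgfrb went from 4.29 and 5.19 to 12.9 and 13.6 CPM, Slc6a7 from 2.75 and 2.61 to 9.42 and 8.405 CPM and Camk2a from 9.57 and 8.38 to 23.6 and 21.9 CPM, with log2 fold changes of 1.48 ± 0.12, 1.73 ± 0.17 and 1.34 ± 0.10. Next to Nkx1-2, the phosphatase gene Lhpp went from 6.53 and 6.100 to 26.2 and 28.6 CPM and Oat, ornithine aminotransferase, from 60.7 and 54.5 to 99.5 and 101.4 CPM (log2 fold changes of 2.12 ± 0.09 and 0.80 ± 0.06); all 3 lie inside the annotated span of Fgfr2. Gad1, which makes the transmitter GABA, lies 78.1 kb past the start of Sp5 and went from 0.7298 and 0.954 to 4.94 and 4.01 CPM. For Gad1 the log2 fold change was 2.40 ± 0.26 (SE; edgeR adjusted p = 6.42e-05). Beyond Dmgdh, the sulfatase gene Arsb had 8 and 7 counts with DMSO and 18 and 24 with CHIR99021, and its call was lost without any 1 of the 8 libraries in turn (adjusted p = 0.0523 to 0.233). Lhfpl2, on its far side, went from 1.16 and 0.788 to 6.17 and 5.65 CPM (log2 fold change 2.60 ± 0.26, SE; edgeR adjusted p = 3.32e-05), and Jmy and Homer1 on the other flank were not called (edgeR adjusted p = 0.226 and 0.356).

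**Figure D5:**
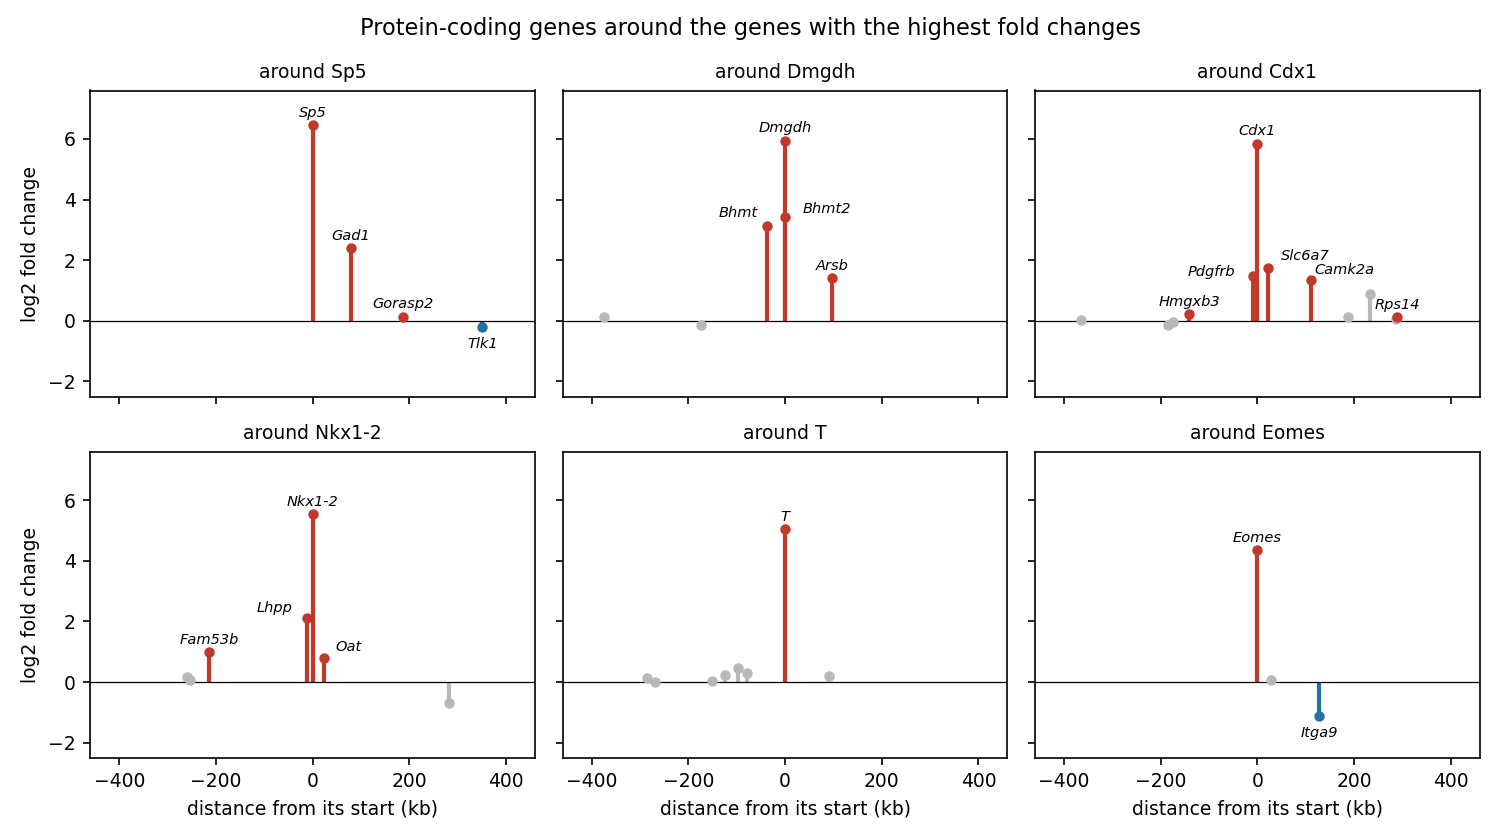
Log2 fold change of the tested protein-coding genes around each of 6 genes, placed by the distance of their start from that gene's start (kb, in the direction of its transcription); red is called higher, blue lower, grey not called, and starts farther than 450 kb are not drawn. Raised neighbours lie on both sides of Cdx1 and Nkx1-2. At Dmgdh the only raised neighbour drawn downstream is Arsb, and at Sp5 all raised neighbours lie downstream. No neighbour drawn near T or Eomes is called higher.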

How the data were processed

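The authors deposited a table with 1 estimated count per gene and library; the submitters' processing notes name kallisto (version not given) and the build GRCm38.p4, without saying which step each served. These estimated counts were rounded here to whole numbers. Whether strand was used in counting is not given in the sources used here; of 300 named genes 65 overlap another tested gene, 45 of them on the opposite strand, and reads of such pairs may be shared.

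Genes were filtered by expected counts (edgeR filterByExpr, at least 10 counts scaled to the library and 15 in total), scaled by TMM and tested with edgeR 4.0.16 (quasi-likelihood, R 4.3.3) in 1 fit of all 8 libraries with a mean per group. P-values were adjusted by Benjamini-Hochberg over 17739 genes. A count of 10 corresponds to 0.383 to 0.429 CPM in the parental libraries. Intervals of count ratios (95%) and floors (3 counts) cover counting error only. The SE of a log2 fold change is its absolute value divided by the square root of the quasi-likelihood F. It can be too small for genes with few counts.

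The members and gene lists were chosen with earlier results of these data known. Some genes belong to more than 1 list and are counted in each. Named are fixed pathway genes, the 15 highest and 15 lowest fold changes and the 10 largest CPM gains and losses (at least 5 CPM, groups not overlapping, no predicted-gene or clone names), up to 6 members of each list by adjusted p, on/off genes, and others as values, chosen after they were seen. Positions are GENCODE M21 (GRCm38). The fit was tested on simulated data before use. It called 47 of 75, 63 of 75 and 50 of 50 genes simulated with absolute log2 fold changes of 0.5, 1 and 2. It also called 17 genes that had been left unchanged. Only genes with a mean over 1 CPM were changed, and far fewer than were called in the data. These rates therefore do not cover rarer genes. Alternatives were DESeq2 1.42.0, limma 3.58.1 (voom), other size factors, filters and thresholds, a replicate block, the parental libraries alone, and leaving out each library. A few named genes are left out of the text.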

Additional observations from a re-analysis of the deposited data

How the results depend on the processing

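No call changed direction under any alternative run. Of 285 named genes that were called, 227 lost the call under no alternative that gave them an adjusted p, and 58 lost it under at least 1. A gene that an alternative filtered out or left without an adjusted p was not counted as lost there. DESeq2 called 2211 genes, 971 of them higher, with 361 past 2-fold; it gave no adjusted p for 3439 genes. Under the stricter filter of 5 CPM in 2 libraries 234 genes were called past 2-fold, where fewer genes were tested. At an adjusted p under 0.01, 1897 genes were called, 820 higher and 1077 lower. Leaving out 1 library gave 2057 to 3507 genes called, 882 to 1719 higher, 1155 to 1828 lower and 439 to 551 past 2-fold; where a parental library was left out, the lone library of its group was assumed to vary like the other groups.

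Samples were not treated as pairs by replicate number: deviations of same-numbered libraries correlated at -0.0842 between the parental groups, and over the 6 pairs of groups at -0.109 to 0.372, above 0.1 in 3. With the replicate block 3434 genes were called, and 95.7% of the calls were kept. The log2 fold changes of 3 uncalled genes changed sign with 1 library left out: Esrrb ranged from -0.0173 to 0.00038, Jup from -0.0524 to 0.0066, and Lef1 from -0.254 to 0.242, with 0.193 without parental CHIR99021 replicate 1. Depth limits genes under 1 CPM, where the median standard error was 0.503 on the log2 scale, against 0.0434 over 100 CPM.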

Other observations

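Hprt, a purine salvage enzyme gene, was rare in all 4 parental libraries, with 1.03 and 0.747 CPM with DMSO and 0.996 and 0.502 with CHIR99021; it was singled out after its values were seen.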
